A study of Rattus norvegicus with 4 samples.

Results

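The noncollagen glycoproteins, elastic fibre proteins, laminins and matricellular proteins of the tendon matrix were followed at the transcript level in cultured rat tendon stem/progenitor cells (rTSPCs). The members were chosen by gene symbol alone: every measured laminin chain, fibrillin, fibulin, thrombospondin, nidogen, matrilin, EMILIN, EFEMP, MFAP, SPARC, SMOC or CCN gene, together with a fixed set of single names such as Eln, Tnc, Postn, Cilp, Acan and Vcan. This gave 35 genes of the 7235 with a name on these arrays. By role, 9 belong to the elastic fibre, 5 to the basement membrane and 14 to the matricellular proteins, whereas 4 are other matrix genes. The remaining 3, Mfap1a, Mfap3 and Mfap3l, share the MFAP symbol and were kept apart, since the product of Mfap1a works in the spliceosome. Of 71 genes written down for these names, 35 were measured. By role group, these were 9 of 16 elastic fibre, 5 of 15 basement membrane and 14 of 21 matricellular genes. Those without a named feature were not analysed here. Among them were Fn1, Sparc, Thbs1, Tnxb and Tnmd, and the basement membrane genes Lamb1, Nid1 and Hspg2.

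By the sample titles, the cells came from 18-month-old rats. The study isolated such cells from Achilles tendons and expanded them from selected colonies. They received either prim-O-glucosylcimifugin (POG), a compound of the saposhnikovia root, at 20 μM or an equal volume of its solvent DMSO. There were 2 arrays for each treatment, called 18M + DMSO and 18M + POG, and no other allele or agent was involved. The treatment entries also name passage 12, and the study describes both aged and serially passaged cells. Its serially passaged cells came from young rats and received POG in each passage, whereas its aged cells received POG for days only. The passage history and length of exposure of these cultures are therefore not settled, and their donor age rests on the titles. The titles of the DMSO arrays name both treatments, and the groups and all directions below therefore follow the treatment entries and the column names. The titles call the replicates biological but do not say whether they came from different rats, and the p-values reflect no more than the spread of these arrays.

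Each value is a log2 signal from robust multichip analysis, in which a difference of 1 is a doubling, and log2 fold changes run from 18M + DMSO to 18M + POG. A gene was counted as changed when limma gave it an adjusted p under 0.05 (Benjamini-Hochberg, over all 7235 genes). Over these 7235 named genes 20.4% were higher and 17.2% were lower with POG by this rule, so change was common. The deposited values cover 10141 features, and the 2901 without a name are not part of these shares. Arrays of one group correlated at 0.994 and 0.995 across features, and arrays of different groups at 0.962 to 0.965. As labelled, all 13 measured proliferation genes were lower with POG, with a median log2 fold change of -3.64, and their summed signal was 16.90 and 16.91 log2 units on the DMSO arrays against 13.15 and 13.31 on the POG arrays. Among these genes Mki67 had 15.11 and 15.04 with DMSO and 10.97 and 10.91 with POG (log2 fold change -4.135). This direction runs opposite to the gains in self-renewal and Ki67 staining that the study describes for aged rTSPCs with POG. That staining measured protein, whereas these values are RNA, and no targeted gene checks the labels. Of 5 mesenchymal markers, Eng, Thy1, Itgb1 and Cd44 had signals of 11.40 to 17.56, whereas Nt5e was dim, at 4.71 and 4.71 with DMSO and 5.67 and 5.69 with POG. Cd34, a blood stem cell marker, had 5.63 to 6.55 and was higher with POG (log2 fold change 0.63, adjusted p = 0.0297). The lowest signals of the arrays were 3.08 to 3.15. Cd34 was dim, at the 18.0 percentile of signal with DMSO and the 24.2 with POG, and can hold background. By flow cytometry the study reports its rTSPCs as negative for CD34. Among tendon markers Col1a1 lay at 19.08 to 19.41, while the tendon transcription factor gene Scx lay at 5.48 to 6.09. In such bulk samples, a different share of a cell type and a different amount of RNA per cell cannot be told apart, and the part of the fall of proliferation genes in the matrix results was not tested.

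The elastic fibre is built from a core of elastin on a scaffold of fibrillin microfibrils, with fibulins and microfibril-associated proteins guiding assembly and lysyl oxidases crosslinking the product. It lets tendon fascicles recoil after stretch. Laminins, nidogens, perlecan and agrin assemble with type IV collagen into the basement membrane, which surrounds vessels, nerves and muscle fibres and the outer sheath of tendon rather than its fascicles. Matricellular proteins, among them thrombospondins, tenascins, periostin and the CCN family, are secreted into the matrix but mainly tune adhesion, growth factor signalling and fibril formation, and many rise during wound repair.

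Of the 35 members, 16 were higher and 5 were lower with POG (45.7% and 14.3%, beside 20.4% and 17.2% of all genes), and 14 did not pass. In either direction 37.6% of all genes passed. Changes over 2-fold were held by 9 higher and 2 lower members (7.09% and 7.46% of all genes). Both POG arrays lay above both DMSO arrays in 20 members and below them in 9, and the groups overlapped in 6, whereas of all genes 37.2% lay apart upward, 32.7% downward and 69.8% either way. Their median log2 fold change was 0.38, beside 0.04 over all genes tested. The role groups differed in their make-up. Of 9 measured elastic fibre genes, 6 were higher and none was lower. Of 5 measured basement membrane genes, 3 were higher and none was lower. The 14 matricellular genes went both ways, with 5 higher and 4 lower. At an unadjusted p under 0.05 from limma and by the methods' t-test, 0 genes of the elastic fibre and basement membrane groups were lower too. The difference between role groups was not tested, since genes of one array are not replicates. With each array left out in turn, 1 group held only 1 array. Fewer members then passed, as did fewer of all genes, and every called change kept its direction.

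**Figure D1:**
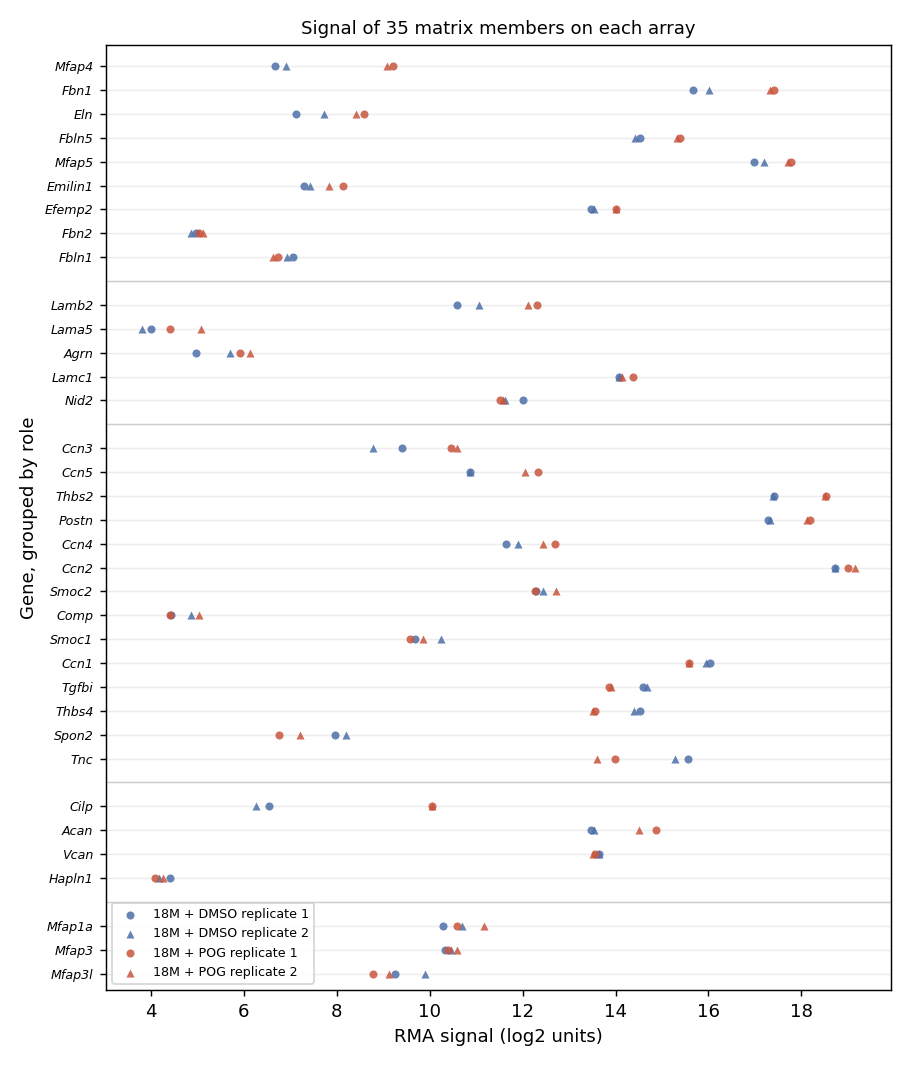
RMA signal in log2 units (horizontal axis) of each of the 35 members (rows, grouped by role from elastic fibre at the top to the MFAP-named genes outside the matrix at the bottom) on each of the 4 arrays, with DMSO in blue, POG in red, circles for replicate 1 and triangles for replicate 2. For Cilp the POG points lie at 10.05 and 10.06 and the DMSO points at 6.26 and 6.54, whereas for Tnc the order is reversed.

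**Figure D2:**
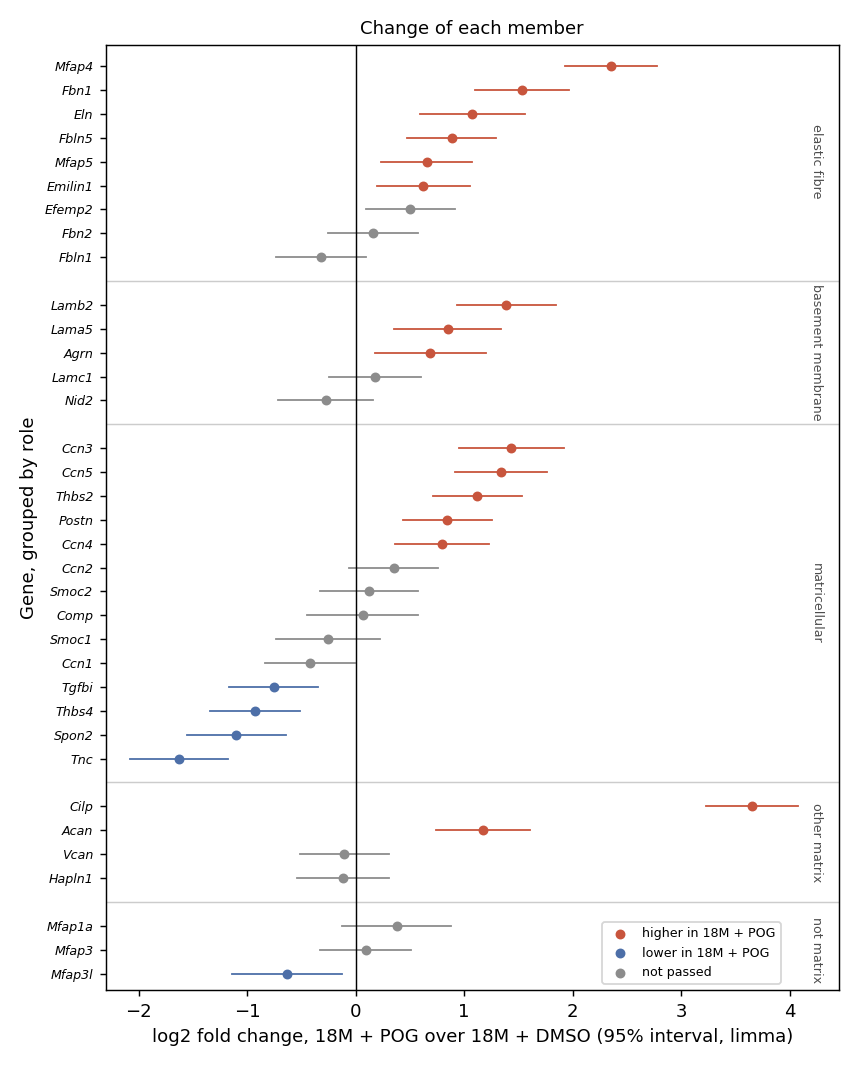
Log2 fold change from 18M + DMSO to 18M + POG (horizontal axis; dots) with its 95% interval from limma (lines) for the same 35 members (rows), in red for the 16 higher, in blue for the 5 lower and in grey for the 14 that did not pass. The elastic fibre and basement membrane rows hold no blue point, and the matricellular rows hold 5 red and 4 blue points.

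The sequence before the start of transcription is shown for the members with the largest changes in each direction among those with a single RefSeq start: Cilp and Fbn1, both higher with POG, and Tnc and Spon2, both lower. Each line gives the 250 bases before the start on the coding strand, 5′ to 3′, from RefSeq's GRCr8 table, at chr8:74672198-74672447 (plus strand) for Cilp, chr3:133203391-133203640 (minus strand) for Fbn1, chr5:82476132-82476381 (minus strand) for Tnc and chr14:81736466-81736715 (plus strand) for Spon2. Capitals mark matches, on either strand, to short motifs. SMAD proteins, which carry TGF-β signals, bind the letters CAGAC. TEAD factors, the partners of YAP/TAZ, bind GGAATG. The AP-1 motif was written as TGANTCA, and the serum response factor's CArG box was searched by its consensus. Of the general boxes, the TATA box was written as TATAAA. The GC box was written as GGGCGG, and the CCAAT box by its own letters. No matches overlapped in the windows shown.
Cilp: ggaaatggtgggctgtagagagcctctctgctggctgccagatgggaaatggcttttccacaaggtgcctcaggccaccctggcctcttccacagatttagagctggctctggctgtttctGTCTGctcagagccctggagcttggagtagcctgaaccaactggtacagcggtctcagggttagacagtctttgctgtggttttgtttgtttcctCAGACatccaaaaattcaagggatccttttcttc
Fbn1: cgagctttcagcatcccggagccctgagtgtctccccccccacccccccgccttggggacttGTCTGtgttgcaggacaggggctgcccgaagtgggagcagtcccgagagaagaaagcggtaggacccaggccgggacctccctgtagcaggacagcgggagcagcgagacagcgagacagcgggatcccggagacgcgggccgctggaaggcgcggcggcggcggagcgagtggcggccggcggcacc
Tnc: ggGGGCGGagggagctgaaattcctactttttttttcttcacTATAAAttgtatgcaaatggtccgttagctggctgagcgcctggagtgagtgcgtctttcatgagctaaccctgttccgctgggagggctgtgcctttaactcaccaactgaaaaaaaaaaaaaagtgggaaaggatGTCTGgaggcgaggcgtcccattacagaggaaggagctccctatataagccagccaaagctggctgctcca
Spon2: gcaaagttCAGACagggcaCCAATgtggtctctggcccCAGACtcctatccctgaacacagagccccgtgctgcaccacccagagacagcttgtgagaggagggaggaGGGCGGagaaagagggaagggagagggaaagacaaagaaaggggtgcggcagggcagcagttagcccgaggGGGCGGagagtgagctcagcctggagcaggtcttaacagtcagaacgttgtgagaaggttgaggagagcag
In these windows the CAGAC letters stood 2 times for Cilp, 1 time for Fbn1, 1 time for Tnc and 2 times for Spon2, so they occurred before genes of both directions. Tnc also had the TATAAA letters, 208 bases before its start. The similar letters tatataag, much closer to its start, differ from the motif as written and were not marked. A window was at hand for 24 of the 35 members. Of these, 16 held CAGAC (42.9% of all 33469 windows did), among them 6 of 8 members that were higher and 4 of 5 that were lower. GGAATG stood before Ccn1, Ccn2, Acan, Thbs4, Fbn2 and Lamc1 (6 of 24, and 12.1% of all windows), and TGANTCA and the CArG box before 0 of 24 (6.34% and 1.5% of all windows). Such matches describe letters and are not evidence of binding.

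Among elastic fibre genes the largest change was in Mfap4, which encodes a fibrinogen-domain glycoprotein that binds elastin and fibrillin. Its signals were 6.67 and 6.91 on the DMSO arrays and 9.21 and 9.08 on the POG arrays. Both POG arrays lay well above both DMSO arrays, by 2.36 on the log2 scale (SE, the standard error, 0.20 and adjusted p = 4.33e-07, limma), or 5.12-fold. Fbn1, which encodes fibrillin, the backbone of the microfibril, had signals of 15.66 and 16.01 with DMSO and 17.42 and 17.32 with POG. Its groups were also apart, with a log2 fold change of 1.54 (SE 0.20, adjusted p = 4.11e-05). Its paralog Fbn2, best known from embryonic microfibrils, was dim on all arrays at 4.98 and 4.87 against 5.04 and 5.13. Its log2 fold change of 0.16 did not pass (95% interval -0.25 to 0.57).
Elastin itself was higher as well. Eln had signals of 7.12 and 7.73 with DMSO and 8.58 and 8.42 with POG, a log2 fold change of 1.08 (SE 0.22, adjusted p = 0.00192). The groups did not overlap, although the DMSO arrays differed from each other by more than the POG arrays did. Fbln5, a fibulin that tethers elastin to cells and microfibrils, had 14.53 and 14.41 against 15.38 and 15.33. The replicates of each group lay close together, and the log2 fold change was 0.88 (SE 0.19, adjusted p = 0.00256).
The microfibril-associated glycoprotein gene Mfap5 went from 16.99 and 17.19 to 17.78 and 17.71 (log2 fold change 0.66, SE 0.20, adjusted p = 0.0171). Emilin1, whose product sits between elastin and microfibrils, went from 7.30 and 7.42 to 8.14 and 7.83 (log2 fold change 0.63, SE 0.20, adjusted p = 0.0250). In both genes the groups were apart by less than in Mfap4 or Fbn1. Efemp2, also called fibulin-4 and needed to bring lysyl oxidase to elastin, had 13.48 and 13.54 against 14.01 and 14.02. All POG values were above all DMSO values, but the log2 fold change of 0.51 narrowly missed the threshold (adjusted p = 0.0512, 95% interval 0.09 to 0.92), and it passed after median subtraction (adjusted p = 0.0337) and in 3 other settings. Fbln1 alone of the elastic fibre group lay lower, with 7.06 and 6.93 against 6.73 and 6.63, and did not pass (log2 fold change -0.32, 95% interval -0.73 to 0.10).
With each array left out in turn, Mfap4 and Fbn1 passed all 4 times, with adjusted p of at most 0.00937 and 0.0248. Fbln5 was lost without DMSO replicate 2 (adjusted p = 0.0563) or POG replicate 1 (0.0501). Eln passed only without DMSO replicate 2 (adjusted p = 0.0143, and 0.0723 to 0.0927 otherwise). Mfap5 and Emilin1 did not pass in any of these smaller fits, with log2 fold changes of 0.555 to 0.755 and 0.47 to 0.78. All of them kept their direction.

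The enzymes and latent TGF-β binding proteins that work with the elastic fibre were followed beside it. Of 13 measured, 4 were higher and 2 were lower (30.8% and 15.4%, beside 20.4% and 17.2% of all genes), with a median log2 fold change of 0.34. Loxl1, the lysyl oxidase most closely tied to elastin, had signals of 12.25 and 12.26 with DMSO and 13.48 and 13.36 with POG. That is a log2 fold change of 1.17 (SE 0.19, adjusted p = 0.000297), with the groups apart. Ltbp3, which holds latent TGF-β in the matrix, was higher by 1.08 on the log2 scale (adjusted p = 0.00124), whereas Loxl4 was lower at -0.82 (adjusted p = 0.0137). Ltbp1, a fibrillin-bound latent TGF-β binding protein, was lower too, at -0.65 (adjusted p = 0.0158), and Ltbp2 had -0.05 (adjusted p = 0.874).

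In the basement membrane group the clearest change was in Lamb2, which encodes the β2 chain of laminin. It had signals of 10.58 and 11.06 with DMSO and 12.31 and 12.11 with POG. The groups were well apart, with a log2 fold change of 1.39 (SE 0.21, adjusted p = 0.000169). Lamc1, whose γ1 chain joins most laminin trimers, had 14.07 and 14.08 against 14.38 and 14.13. The POG values lay just above the DMSO values, and the log2 fold change of 0.18 did not pass (95% interval -0.24 to 0.60).
Lama5, the α5 chain, gave 4.0 and 3.80 with DMSO and 4.42 and 5.08 with POG (log2 fold change 0.85, SE 0.23, adjusted p = 0.0104). Agrn, the heparan sulfate proteoglycan agrin, gave 4.97 and 5.70 against 5.91 and 6.14 (log2 fold change 0.69, SE 0.24, adjusted p = 0.0350). Both were dim and uneven between replicates, and the tables used here hold no detection values to tell such signals from background. Nid2, a nidogen that links laminin to type IV collagen, had 12.01 and 11.63 against 11.51 and 11.58. It leaned lower without passing (log2 fold change -0.28, 95% interval -0.71 to 0.16).
Lamb2 passed with every array left out (adjusted p 0.00945 to 0.0436). Agrn passed only without DMSO replicate 2 (adjusted p = 0.0346, and 0.172 to 0.383 otherwise) and Lama5 only without POG replicate 1 (adjusted p = 0.0300, and 0.103 to 0.165 otherwise). When the dimmest 25% of genes were left out, both fell away and 1 basement membrane gene was higher, with a group median of 0.18 in place of 0.69.

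Of the 10 measured basement membrane collagens, netrin and laminin receptors, 5 were higher and 1 was lower (50% and 10%, beside 20.4% and 17.2% of all genes), with a median log2 fold change of 0.69. Col4a1, a chain of the type IV collagen network, had signals of 12.50 and 12.40 with DMSO and 13.78 and 13.26 with POG (log2 fold change 1.07, adjusted p = 0.00145). Ntn4, a laminin-related netrin, was higher by 1.34 on the log2 scale (adjusted p = 9.25e-05), and Itga1, a chain of a collagen receptor, by 1.17 (adjusted p = 0.000368). The laminin receptor chain Itga6 ran the other way. Its signals were 11.25 and 11.20 with DMSO and 9.92 and 10.03 with POG, a log2 fold change of -1.25 (adjusted p = 0.000165). Its partner chain Itgb1 had 17.56 and 17.40 against 17.52 and 17.55 (log2 fold change 0.06, adjusted p = 0.844), and its groups overlapped.

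**Figure D3:**
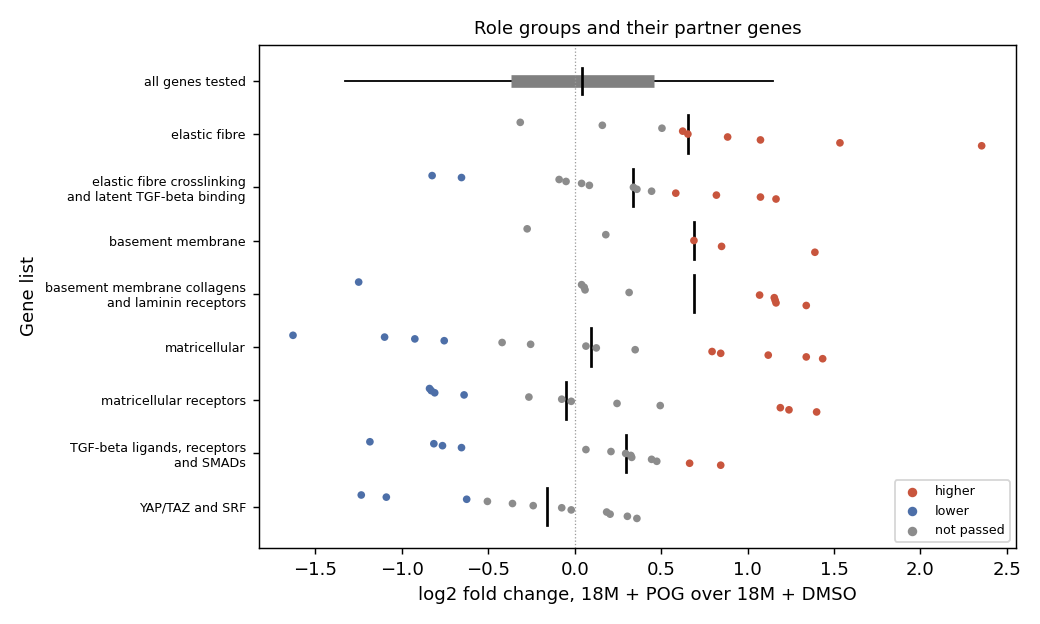
Log2 fold change from 18M + DMSO to 18M + POG (horizontal axis) for each measured gene (dots; red higher, blue lower, grey not passed) of the 3 role groups and of their partner lists (rows), with a vertical bar at each list's median. The top row gives all 7235 genes as the median, the quartile range (grey bar) and the 5th to 95th percentile (line). The medians of the elastic fibre and basement membrane rows lie at 0.66 and 0.69, and that of the matricellular row at 0.10.

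The matricellular genes split within families. Thbs2 encodes a thrombospondin that limits vessel growth and shapes collagen fibrils. It had signals of 17.41 and 17.39 with DMSO and 18.53 and 18.51 with POG. The replicates were almost identical and the groups well apart, at a log2 fold change of 1.12 (SE 0.19, adjusted p = 0.000393). Thbs4, a thrombospondin of tendon and muscle attachments, moved the opposite way, from 14.53 and 14.40 to 13.56 and 13.52 (log2 fold change -0.93, SE 0.19, adjusted p = 0.00189). Comp, the cartilage oligomeric matrix protein of the same family, was dim and overlapping, with 4.44 and 4.86 against 4.40 and 5.03 (log2 fold change 0.07, 95% interval -0.45 to 0.58).
Tenascin-C and periostin, both upregulated in healing tendon and able to bind each other, were on opposite sides. Tnc had the largest decrease of all members, with signals of 15.55 and 15.28 on the DMSO arrays and 13.98 and 13.59 on the POG arrays. Both POG arrays lay below both DMSO arrays, with a log2 fold change of -1.63 (SE 0.21, adjusted p = 3.38e-05), or 3.10-fold. The study reports stronger TNC staining in aged rTSPCs with POG, which is the opposite direction. That staining measured protein after tenogenic induction, whereas these values are RNA and no such induction is named for the arrays. Postn had 17.28 and 17.33 with DMSO and 18.18 and 18.12 with POG, and its groups were apart in the other direction (log2 fold change 0.84, SE 0.19, adjusted p = 0.00344). Tgfbi, the periostin paralog induced by TGF-β, had 14.58 and 14.68 with DMSO and 13.85 and 13.90 with POG. It was lower on both POG arrays (log2 fold change -0.75, SE 0.19, adjusted p = 0.00713).
Spon2, a secreted F-spondin relative that binds integrins, had signals of 7.96 and 8.19 with DMSO and 6.75 and 7.20 with POG. Its groups did not overlap, with a log2 fold change of -1.10 (SE 0.21, adjusted p = 0.00110). The SPARC-related calcium-binding genes did not pass. Smoc2 had 12.29 and 12.44 against 12.27 and 12.71 (log2 fold change 0.13, 95% interval -0.33 to 0.58), and Smoc1 had 9.68 and 10.25 against 9.57 and 9.85 (log2 fold change -0.26, 95% interval -0.74 to 0.23). In both genes the groups overlapped.

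Of the CCN family, whose members combine domains that bind IGF, TGF-β or BMP and integrins, 5 of the 6 genes were measured, and 3 were higher, where 20.4% of all genes were. Ccn3, often growth-restraining, had signals of 9.41 and 8.77 with DMSO and 10.46 and 10.59 with POG (log2 fold change 1.44, SE 0.23, adjusted p = 0.000206). Ccn5, the member that lacks the C-terminal cystine knot, had 10.86 and 10.86 against 12.34 and 12.06 (log2 fold change 1.34, SE 0.20, adjusted p = 0.000114). In both genes each POG array lay above each DMSO array. Ccn4, a Wnt-induced member, had 11.65 and 11.89 against 12.70 and 12.43 (log2 fold change 0.80, SE 0.20, adjusted p = 0.00719).
The immediate-early members did not pass in the same fit. Ccn1 had 16.04 and 15.94 with DMSO and 15.57 and 15.57 with POG (log2 fold change -0.42, unadjusted p = 0.0460, adjusted p = 0.0991, 95% interval -0.83 to -0.01). Ccn2, the connective tissue growth factor gene, had 18.73 and 18.73 against 19.01 and 19.15 (log2 fold change 0.35, adjusted p = 0.170, 95% interval -0.06 to 0.76). In each gene the groups were apart, Ccn1 downward and Ccn2 upward. Both passed when the variance prior was allowed to follow signal, with adjusted p of 0.0123 and 0.0118.
With each array left out in turn, Tnc, Thbs2 and Ccn5 passed all 4 times (adjusted p of at most 0.0284). Ccn3 was lost without POG replicate 2 (adjusted p = 0.0567) and Thbs4 without DMSO replicate 1 (0.0539). Postn was lost without DMSO replicate 1 (0.0615) or POG replicate 1 (0.0524), and Spon2 without DMSO replicate 2 (0.0607) or POG replicate 1 (0.0559). Ccn4 (0.0529 to 0.116) and Tgfbi (0.0615 to 0.0825) did not pass in any of these fits. The median of the 14 matricellular genes, 0.10, changed sign when some arrays were left out, as it was -0.05 without DMSO replicate 1 and -0.17 without POG replicate 2.

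Receptors for these proteins changed in both directions, as genes of these arrays did in general. Of 12 measured, 3 were higher and 4 were lower (25% and 33.3%, beside 20.4% and 17.2% of all genes), with a median log2 fold change of -0.05. Lrp1, the endocytic receptor that clears thrombospondins, had signals of 13.63 and 13.92 with DMSO and 15.08 and 14.95 with POG (log2 fold change 1.24, adjusted p = 0.000247). Itga8, a chain of a receptor for tenascin-C and other RGD ligands, went up by 1.19 on the log2 scale (adjusted p = 0.000348) and the syndecan gene Sdc2 by 1.40 (adjusted p = 5.94e-05). Lower were the proteoglycan gene Cspg4 at -0.84 (adjusted p = 0.00621), Sdc4 at -0.83 (adjusted p = 0.0188), Cd44 at -0.81 (adjusted p = 0.00490) and Itga5, the fibronectin receptor chain, at -0.64 (adjusted p = 0.0222). Thus both syndecan genes that passed differed in direction.
Signalling genes upstream of the matricellular set were followed as well. Of 13 measured TGF-β ligands, receptors and SMADs, 2 were higher and 4 were lower (15.4% and 30.8%, against 20.4% and 17.2% over all genes), with a median of 0.30. Higher were Tgfb2 at 0.85 (adjusted p = 0.00491) and Eng at 0.66 (adjusted p = 0.0200). The inhibitory SMAD genes Smad6 and Smad7 were lower at -1.19 (adjusted p = 0.000527) and -0.82 (adjusted p = 0.00761). Also lower were the receptor gene Tgfbr3 at -0.765 (adjusted p = 0.0107) and Ltbp1 at -0.65 (adjusted p = 0.0158). Tgfb1 had 0.33 (adjusted p = 0.226) and Tgfb3 had 0.07 (adjusted p = 0.831). The YAP/TAZ and SRF pathways drive Ccn1 and Ccn2 in many cells. Of 12 measured genes of these pathways, 0 were higher and 3 were lower (0% and 25%, against 20.4% and 17.2% over all genes). Their median was -0.16, and 0 were higher also at an unadjusted p under 0.05 from limma. Both this list and the TGF-β list mix activators and inhibitors, so their medians do not measure pathway activity. The lower genes were Ajuba at -1.24 (adjusted p = 0.000205), Axl at -1.09 (adjusted p = 0.000527) and Amotl2 at -0.63 (adjusted p = 0.0251).

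Outside the contrasted groups, Cilp had the largest change of all members. It encodes cartilage intermediate layer protein, a secreted antagonist of TGF-β and IGF signalling known from cartilage and tendon. Its signals were 6.54 and 6.26 with DMSO and 10.05 and 10.06 with POG. The groups were far apart, with a log2 fold change of 3.66 (SE 0.20, adjusted p = 1.28e-08), or 12.6-fold. Acan, the large aggregating proteoglycan aggrecan, had 13.47 and 13.54 against 14.86 and 14.50 (log2 fold change 1.18, SE 0.20, adjusted p = 0.000437). Versican, the related proteoglycan of loose matrix, did not share this. Vcan had 13.64 and 13.65 against 13.56 and 13.52 (log2 fold change -0.11, 95% interval -0.51 to 0.30). Hapln1, which links such proteoglycans to hyaluronan, was dim and overlapping at 4.40 and 4.17 against 4.08 and 4.26 (log2 fold change -0.12, 95% interval -0.54 to 0.31). Cilp and Acan passed with each array left out (adjusted p of at most 0.00629 and 0.0377).
Because Acan and Comp also mark chondrocytes, the chondrocyte list is given beside them. Of its 4 measured genes, 3 were higher with POG (75%, beside 20.4% of all genes). These were Acan, Col11a1 at 0.92 (adjusted p = 0.00252) and Col2a1 at 0.57 (adjusted p = 0.0439), whereas Comp did not pass. The summed signal of the list was 13.76 and 13.86 log2 units on the DMSO arrays and 15.08 and 14.80 on the POG arrays. Acan is part of that sum, which is therefore no separate measure of such cells, and Sox9 was not analysed here. The part of such cells in the Acan and Cilp values was not tested. Pericytes and smooth muscle cells also make elastic fibres and laminin. Of their 10 measured markers 4 were higher and 2 were lower (40% and 20%, beside 20.4% and 17.2% of all genes). Among the higher were Myh11 at 3.14 (adjusted p = 2.84e-08), Mcam at 1.30 (adjusted p = 0.000416) and Pdgfrb at 1.29 (adjusted p = 0.000205). The lower ones were Myocd, a smooth muscle coactivator gene, at -1.09 (adjusted p = 0.000526) and Cspg4 at -0.84 (adjusted p = 0.00621). Their most general markers, Acta2 and Tagln, did not pass, at 0.07 (adjusted p = 0.823) for Acta2 and -0.21 (adjusted p = 0.416) for Tagln. The summed signal of that list was 18.81 to 18.92 with DMSO and 18.88 to 19.09 with POG, and its part in the elastic fibre and laminin values was not tested.
Of the genes named MFAP but kept apart, Mfap1a had 10.29 and 10.70 against 10.58 and 11.17 and Mfap3 had 10.33 and 10.45 against 10.39 and 10.58, and neither passed (adjusted p = 0.219 and 0.730). Mfap3l had 9.26 and 9.90 with DMSO and 8.77 and 9.13 with POG, a log2 fold change of -0.63 just past the threshold (adjusted p = 0.0484). It was lost after quantile normalization, and in each fit with 1 array left out (adjusted p 0.0606 to 0.429). Without these genes, 16 of 32 matrix members were higher and 4 were lower.

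**Figure D4:**
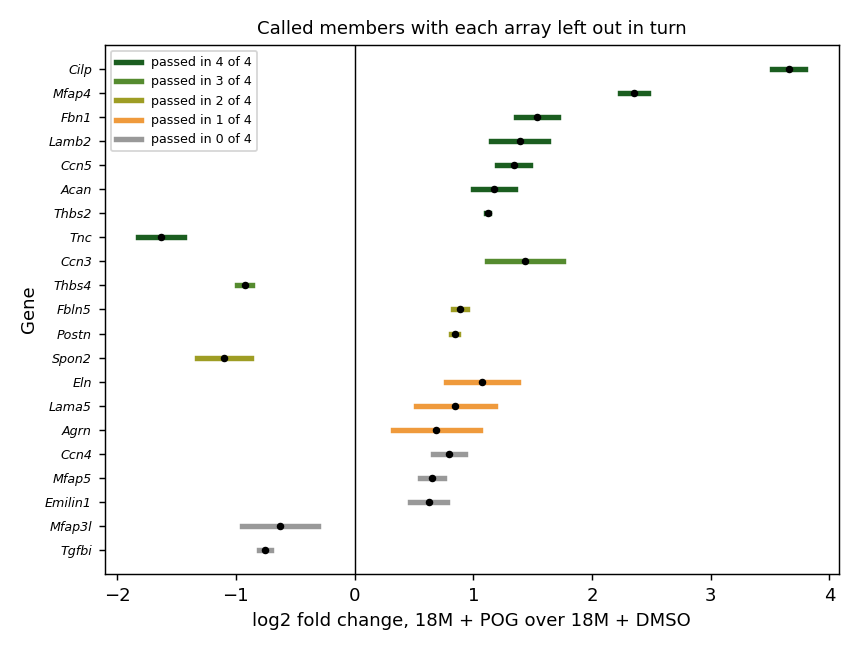
Log2 fold change (horizontal axis) of the 21 members that passed (rows), as fitted with all 4 arrays (black dots) and as the range over the 4 fits with 1 array left out (coloured bars). Bar colour gives in how many of those 4 fits the gene passed: 8 genes, from Cilp to Tnc, passed in all 4, and 5 genes, from Ccn4 to Tgfbi, in 0.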

How the data were processed

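RNA of 4 cultures was measured on Affymetrix Rat Transcriptome Arrays. Per the study's methods, the authors made the values by robust multichip analysis (RMA) with default settings and global scaling and deposited log2 signals, 1 column per array; software version and annotation build are not given in the sources used here. In addition, another deposited table held the same log2 values in 10141 of 10141 features. Features were named by GEO's platform annotation: 7240 had 1 symbol, 0 had several and 2901 none. These are 7235 genes, with the brightest feature used for the 4 genes that had more than 1. All members had 1 feature. No detection values were given and no filter was set, and the number of arrays limits the precision.
The tests used limma 3.58.1 under R 4.3.3, with lmFit, eBayes and a group term alone. The study's methods name Student's t-test at an unadjusted p under 0.05 and a fold change over 1.5, here called the methods' t-test and used as an alternative; with 2 arrays a group an exact permutation test cannot give a two-sided p under 0.333. The model was also run on simulated data, with independent noise drawn from its own variance estimates. Such a run cannot speak for batches, animals or array labels. Members, role groups, partner lists and cell type markers were chosen from general knowledge with earlier results of these data known, so no p is given for a list. Full values are given for up to 8 members per role group that passed with their groups apart, for the 2 brightest that did not pass, and for Tnc; the remaining members were added after their values were seen, as were partner genes beyond the 3 with the largest change past the threshold in each list. Alternatives were the second table, quantile normalization, median subtraction, leaving out the dimmest 25% of genes, the mean over features, all features, a replicate block, a variance prior with trend, a fold limit of 1.5, the methods' t-test and leaving out each array. RefSeq promoter windows (GRCr8) were matched by gene ID. Figures were drawn with matplotlib 3.10.9.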

Additional observations from a re-analysis of the deposited data

How the results depend on the processing

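Set against the reported values, single members under single alternatives kept their side of the threshold 448 times, lost the call 66 times and gained it 6 times, and 0 called changes reversed. Of the members that did not pass, Comp (-0.14 without DMSO replicate 1, -0.25 without POG replicate 2), Smoc1 (0.03 without DMSO replicate 2) and Smoc2 (-0.09 without POG replicate 2) changed sign. With each array left out, 9 to 11 members were higher in place of 16 and 2 to 3 lower in place of 5. Elastic fibre genes higher numbered 2 to 3 in place of 6, basement membrane genes 1 to 2 in place of 3, and matricellular genes 3 to 4 higher and 2 to 3 lower in place of 5 and 4. The group medians then ranged from 0.56 to 0.78 (elastic fibre), from 0.33 to 0.81 (basement membrane) and from -0.17 to 0.36 (matricellular), the last being -0.05 without DMSO replicate 1. These fits have fewer arrays, and all members' called directions held in them. After Benjamini-Hochberg adjustment the methods' t-test called 0 members in either direction, and so 0 in each role group; unadjusted it called 12 higher and 4 lower, with 1 basement membrane gene higher. Without the dimmest 25% of genes, 30 of 35 members were tested, 1 basement membrane gene was higher, and the medians were 0.18 (basement membrane) and 0.13 (matricellular, which was 0.15 after median subtraction). The second table, the mean of features and the fold limit of 1.5 changed no call. Their outcome was all but fixed, since the table held the same values, each member had 1 feature and each called change exceeded the limit. These settings count among the unchanged cases above without testing them. With the replicate number as a block, 17 members were higher and 5 lower, Efemp2 being the call gained. The deviations of same-numbered arrays correlated at 0.15, and nothing in the labels ties the numbers to shared animals or days, so the arrays share only a number. Signals of Lama5, Fbn2, Comp, Hapln1 and Agrn lay among the dimmest 25% and can hold background.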

Other observations

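Markers of other cell types are given beside the matrix genes. Of all genes, 20.4% were higher and 17.2% were lower, and 37.6% passed in either direction. Of 5 measured adipocyte markers, 2 were higher and 1 was lower with POG. Lpl, the lipoprotein lipase, went from 6.43 and 6.61 to 8.47 and 8.40 (log2 fold change 1.92, adjusted p = 3.07e-06 from limma). Adipoq went from 4.81 and 4.95 to 5.83 and 6.14 (log2 fold change 1.105, adjusted p = 0.000675). The lower gene was Pparg, the driver of adipocyte differentiation, from 6.53 and 6.79 to 5.87 and 6.06 (log2 fold change -0.69, adjusted p = 0.0145). Fabp4 (0.44) and Lep (0.205) did not pass, though each POG array lay above each DMSO array. Adipoq, Fabp4 and Lep were dim, at the 10.3, 10.6 and 7.73 percentiles of signal with DMSO. With POG they lay at the 19.4, 14.2 and 9.05 percentiles, and such signals can hold background. Both measured Schwann cell markers were higher, Pmp22 at 0.81 (adjusted p = 0.00491), which fibroblasts also express, and S100b at 0.91 (adjusted p = 0.00414). Of 3 leukocyte and macrophage markers and 1 endothelial marker, Kdr, 0 passed in limma (0 also at an unadjusted p under 0.05). Kdr had signals of 5.73, 5.82, 5.50 and 5.94 and Cd68 had 5.08, 5.26, 5.0 and 5.32 (DMSO arrays first), with the groups overlapping. Of 5 mesenchymal markers, Nt5e and Eng were higher, at 0.97 (adjusted p = 0.00124) and 0.66 (adjusted p = 0.0200), and Cd44 was lower as given above.

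Of 10 measured tendon markers, 4 were higher and 2 were lower (40% and 20%, beside 20.4% and 17.2% of all genes). Higher were the small proteoglycan genes Lum at 2.79 (adjusted p = 1.14e-07) and Dcn at 1.18 (adjusted p = 0.000297), Egr2 at 1.14 (adjusted p = 0.000338) and Col3a1 at 1.11 (adjusted p = 0.000438). The lower genes were Tnc and Thbs4, both members described above. Col1a1 had 0.28 (adjusted p = 0.269), Fmod 0.34 (adjusted p = 0.212) and Scx -0.34 (adjusted p = 0.212). Thus the list moved in both directions among its members that passed, as genes of these arrays did in general. Of 6 broadly expressed genes, B2m was higher at 1.21 (adjusted p = 0.000279), and Gapdh, Pgk1, Rplp0, Sdha and Tbp did not pass.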
